A study of Mus musculus with 8 samples.

Results

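The sites described here are the near-fully methylated adenosines of mouse TBLC that received a control siRNA. N6-methyladenosine (m6A) was mapped by GLORI, a chemical method in which unmethylated adenosine is converted and read as G, while methylated adenosine is still read as A. The level of a site is its share of A reads among all A and G reads. A site was taken when it was listed with a gene name in both control libraries, had at least 20 A+G reads in both, and had a level of at least 0.9 in both. Of 40340 sites with a gene name and that depth in both control libraries, 2446 qualified (6.06%), in 1610 of 7784 genes. The whole series lists 88981 sites.

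The study holds 8 libraries in 4 groups of 2. TBLC in MYCP medium received an siRNA against Virma (siVirma) or the control siRNA (siNC). EPSC carried dCas13b-FTO, an RNA-guided fusion with the m6A demethylase FTO, with a guide against Gata6 (sgGata6) or a control guide (sgCtrl), and their values were pooled to 1 value per group. The first comparison addresses what Virma contributes to m6A in TBLC, and the second how the guided demethylase acts. An siRNA lowers a transcript without removing it, and the labels do not say whether the libraries of a group came from separate cultures, so p-values reflect how these libraries vary, and that variation may be technical.

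Most m6A in mRNA is placed co-transcriptionally by a complex of the catalytic subunit Mettl3, its partner Mettl14, the adaptor Wtap and further subunits. Virma is a large scaffold subunit of that complex and is known for methylation near stop codons and in 3' UTRs. Some RNAs, among them U6 small nuclear RNA, receive m6A from other enzymes. m6A is read by proteins of the YTH family, of which the Ythdf proteins are linked to mRNA decay, and in pluripotent cells it marks transcripts of several core transcription factors.

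The lists held 3423268 and 2655963 A+G reads over called sites in siVirma, and 4764955 and 4367999 in siNC. Virma coverage, a gene value in the lists, stood at 24.0 and 22.8 in siVirma, against 40.3 and 38.2 in siNC. Virma itself carried 29 sites of the required depth and none of them was near-fully methylated. Of the markers fixed for the cell types, all 6 of naive pluripotency, all 6 of the 2-cell stage program, all 6 of fibroblast feeder cells and 3 of 4 of primitive endoderm had a listed site (Sox7 had none). No genome sequence or annotation of the files' build, mm39, was used here, so exons, introns, UTRs and sequence around the sites are not stated.

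Nearly every near-fully methylated site was still called after the Virma siRNA, but at a lower level. Of the 2446 sites, 99.6% were listed in siVirma replicate 1, 98.2% in replicate 2, and 97.9% in both. The mean over the 2 libraries was 98.9% ± 0.954 (SD, n = 2). The 52 sites missing from at least 1 siVirma list had few reads in siNC, with medians of 22.5 and 22 against 48 and 45 at the other sites. Of these, 49 were listed in the other siVirma library, at a median level of 0.647 and a median of 22 reads. Calling required 15 A+G reads, 5 A reads and a level of 0.1, as the values in the lists show, so a missing site can have few reads or a low level. The sites in neither siVirma list were in Slc7a6, an amino acid transporter (chromosome 8 at 106924794), in Zfhx2, a zinc finger homeobox gene (chromosome 14 at 55301695), and in Tmem186, a mitochondrial complex I assembly factor (chromosome 16 at 8454191). In siNC they had 40 and 21, 22 and 21, and 22 and 20 reads, below the medians given above for the sites listed in both.

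At the 2311 sites with at least 20 reads in both siVirma libraries, the median level was 0.617 and 0.621 in siVirma, against 0.953 and 0.955 in siNC. The siNC values were set by how the sites were chosen, so they are a description and no test is given for them. The mean siVirma level of a site had a median of 0.616, with quartiles of 0.523 and 0.728, and ran between 0.169 and 1. The median site kept 64.8% of its siNC level. Only 12 sites had a mean siVirma level below 0.3, while 575 lay between 0.5 and 0.6, 564 between 0.6 and 0.7, and 96 at 0.9 or above.

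**Figure D1:**
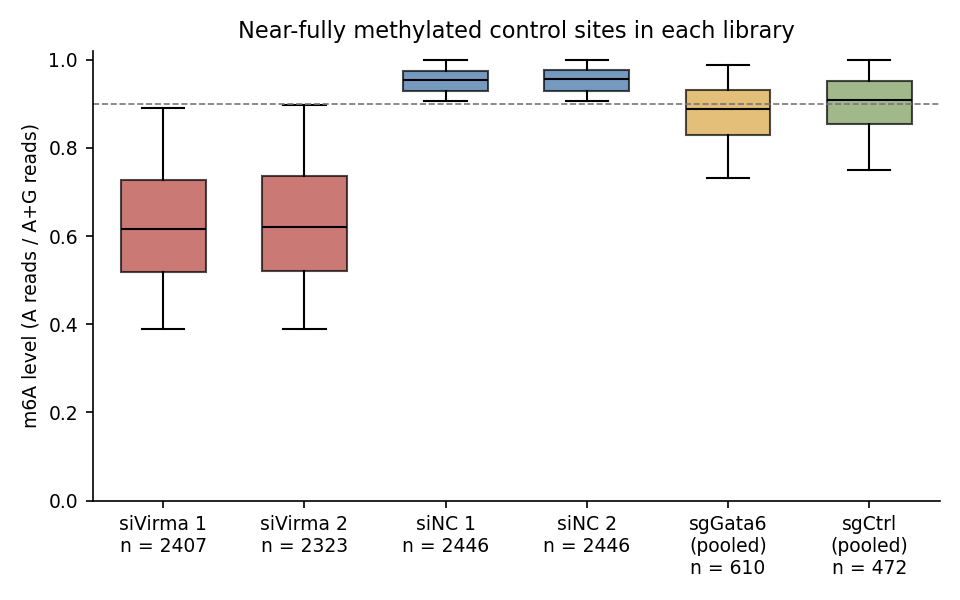
m6A level (share of A reads among A+G reads) of the near-fully methylated sites in each TBLC library and in the pooled EPSC groups, for sites with at least 20 reads there; boxes are quartiles, lines medians and whiskers the 5th and 95th percentiles over sites, and the dashed line is the threshold of 0.9. The siVirma medians are 0.617 and 0.621, well under the siNC boxes, while the EPSC boxes lie around the threshold.

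Choosing high values in 2 libraries can by itself make them lower elsewhere, so the sites were also chosen on a single siNC library. Of 3997 sites chosen on siNC replicate 1 alone, 89.5% were listed in siNC replicate 2, and 3032 had at least 20 reads there and in both siVirma libraries. Those 3032 had a median level of 0.939 in siNC replicate 2, with 76.2% of them at 0.9 or above. They had medians of 0.587 and 0.591 in siVirma, 63.0% of their level in the siNC library that did not choose them. Of 3641 sites chosen on siNC replicate 2 alone, 95.8% were listed in siNC replicate 1, and the 3072 with that depth kept 62.6% of their level there, where their median was 0.938. The lower siVirma level was therefore also seen against siNC values that played no part in the choice, with sizes close to the 64.8% above. The threshold marked no break. The 370 sites just inside it, at a lower siNC level of 0.90 to 0.91, had siVirma medians of 0.541 and 0.545 over the 334 measured there. The 222 just outside, at 0.89 to 0.90, had 0.505 and 0.517 over 217.

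Down to a siNC level of 0.5, sites at lower siNC levels kept a smaller share of their level. The near-fully methylated sites kept 64.8%, against 51.0% at the 2684 measured sites whose lower siNC level was 0.8 to 0.9, 43.8% at 0.7 to 0.8, and 40.1% at 0.5 to 0.7. Sites below 0.5 that were still listed kept 42.2%. The siVirma medians of the bands between 0.5 and 0.9, high to low, were 0.442 and 0.444, 0.342 and 0.340, and 0.248 and 0.250 in replicates 1 and 2. In siVirma, 20.1% of the near-fully methylated sites were below 0.5, against 67.8% of the sites at 0.8 to 0.9. Retention was alike in both bands, at 97.9% and 97.6% in both siVirma lists, and was 25.7% for the sites below 0.5 in siNC. Levels of the lowest bands are over the sites that stayed above the calling minimum and so understate the decrease there.

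**Figure D2:**
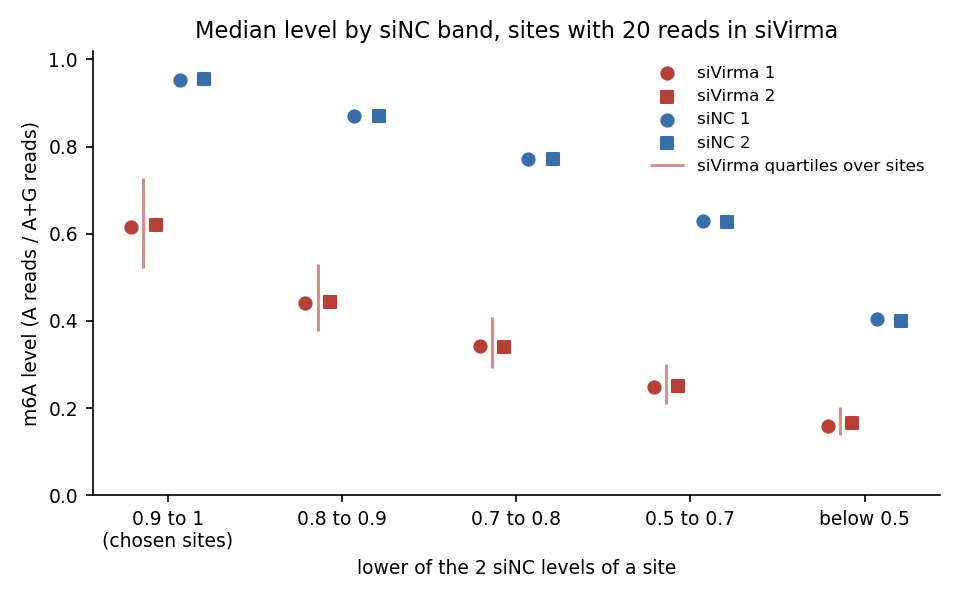
Median m6A level in each TBLC library for sites grouped by the lower of their 2 siNC levels, with the near-fully methylated sites at the left and the quartiles over sites of the mean siVirma level as lines. The siVirma medians go down with the siNC band, 0.617 and 0.621 at the chosen sites against 0.442 and 0.444 in the next band.

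With edgeR's quasi-likelihood test on A and G reads over all 20414 sites with 20 reads in every TBLC library, 2209 of the 2311 sites were lower in siVirma at an adjusted p of 0.05 and 2 were higher. Over all sites tested, 91.6% were lower and 0.147% higher. The level in siNC chose the sites, so the count is given beside that background and nothing is read from it. At 2243 sites (97.1%) the siVirma libraries were both lower than either siNC library, against 94.8% of all sites tested. At 6 sites they were both higher, against 0.715% of all sites tested. The 100 sites without a call had a median siVirma level of 0.926. Of the 2 called higher, 0 were called without siVirma replicate 1 or without either siNC replicate. They were in tRNA genes, n-TSaga1 (chromosome 13 at 22121309) and n-TStga1 (chromosome 13 at 23702352). At n-TStga1 the level was 0.976 and 0.979 in siVirma, against 0.955 and 0.949 in siNC, with 198 to 334 reads. Exact permutation of 2 against 2 libraries cannot go below a two-sided p of 0.333, so single sites rest on the model fitted over all sites.

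The siVirma libraries ranked the sites alike. Over the 2311 sites the siVirma levels correlated with Pearson's r of 0.826 and Spearman's rho of 0.817 between the replicates. The siNC levels, confined by the choice to 0.9 and above, had r of 0.332. These are correlations across sites, which share libraries and, for near neighbours, reads, so no p is given. The SD over sites of the mean level was 0.145 in siVirma, against 0.0241 in siNC. The median absolute difference between the siVirma replicates was 0.0542, about the size of the median binomial standard error of a single site in siVirma replicate 1, 0.0548. When sites were placed in classes by their siVirma replicate 1 level, the replicate 2 medians were 0.457 for sites below 0.5, 0.564, 0.647 and 0.734 for the next classes of width 0.1, and 0.850 for sites at 0.8 or above.

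**Figure D3:**
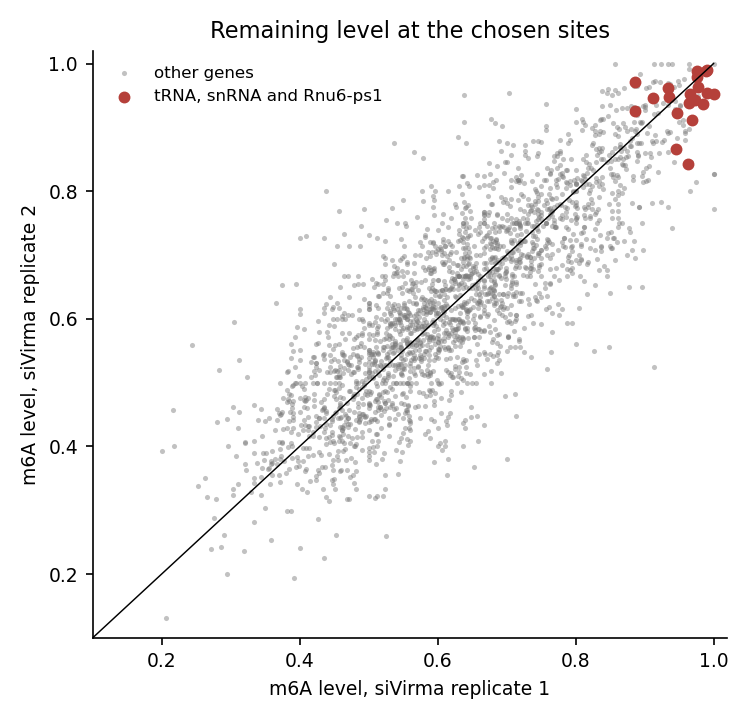
m6A level of each of the 2311 near-fully methylated sites in siVirma replicate 1 (horizontal) and replicate 2 (vertical), with the line of equality; sites of tRNA, snRNA and Rnu6-ps1 are marked. The sites spread along the line with r of 0.826, and the marked sites sit in the upper corner.

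The sites with the lowest levels in siVirma were in genes of several functions. Among the 967 sites with at least 50 reads in every TBLC library, the lowest were in Erf, an Ets-family repressor of transcription downstream of ERK, and Mtcl1, a microtubule crosslinking protein. The Erf site (chromosome 7 at 24944100) had levels of 0.276 and 0.288 in siVirma, against 0.956 and 0.95 in siNC, 29.6% of its siNC level. The Mtcl1 site (chromosome 17 at 66644450) had 0.291 and 0.261 in siVirma, against 0.9 and 0.903 in siNC, from 90 to 196 reads a library. D6Wsu163e, Ric8a, Gm14292, a pseudogene by RefSeq type, and Ap1ar followed. Ric8a, a chaperone and exchange factor for G protein alpha subunits, had 0.35 and 0.304 in siVirma, against 0.908 and 0.907 in siNC (chromosome 7 at 140442504). Ap1ar, a regulator of adaptor protein 1 transport, had 0.343 and 0.323 in siVirma, against 0.915 and 0.942 in siNC (chromosome 3 at 127602191). These 6 sites were chosen for low siVirma levels among sites high in siNC, so the choice itself set the gap between the groups. At each of them the replicates of a group lay within 0.05 of each other. A deeply covered site of the same kind was that of Calr, a chaperone of the endoplasmic reticulum (chromosome 8 at 85569182). It had 0.448 in each siVirma library from 2168 and 1515 reads, against 0.941 and 0.952 in siNC from 1489 and 1414 reads.

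At the other end, 59 sites in 57 genes stayed at 0.9 or above in both siVirma libraries (2.55% of those measured, against 0.298% of the sites at siNC levels of 0.8 to 0.9). Of these, 16 were in tRNA genes, snRNA genes or Rnu6-ps1, a copy of U6 small nuclear RNA, and 43 in other genes. The deepest was that of n-TUtca2, named for the selenocysteine tRNA (chromosome 7 at 19035207). It had 0.989 in each siVirma library from 3960 and 3520 reads, against 0.987 and 0.989 in siNC from 3042 and 2524 reads, so the siVirma levels were both above siNC, but only in the third decimal, and the site was not called higher. In tRNA genes, 13 of the 54 sites with enough depth were near-fully methylated. The 12 measured had siVirma medians of 0.976 and 0.951, against 0.960 and 0.95 in siNC. For snRNA genes, as the RefSeq table (assembly GRCm38.p6) types them, 8 of 15 sites were near-fully methylated, and the 7 measured had siVirma medians of 0.964 and 0.952. Of the 22 sites of tRNA, snRNA and Rnu6-ps1 together, 20 were measured and the lowest mean siVirma level among them was 0.903. In the tRNA genes the conversion rate that the lists give for a gene, taken from its column name as the share of adenosines read as G, was 0.825 to 0.919 in siNC replicate 1, with a median of 0.879, against a median of 0.973 over all near-fully methylated sites. Unconverted adenosine is read as A whether it is methylated or not, and the part of the conversion rate in these levels was not tested. The level of a tRNA site is thus a share of unconverted adenosine, and whether m6A lies behind it was not tested. tRNA and snRNA genes have near-identical copies, so the copy that gave the reads is uncertain.

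Sites of mRNAs were also among those that stayed high. These sites were chosen after their values were seen. Fzd5, a receptor of Wnt ligands, had 0.965 and 0.991 in siVirma, against 0.979 and 0.990 in siNC, from 96 to 141 reads (chromosome 1 at 64774567). Irf2bpl, a transcriptional regulator with a RING domain, held a pair of such sites (chromosome 12 at 86929392 and 86929494). The first had 0.979 and 0.965 in siVirma, against 0.991 and 0.98 in siNC, and the second had 0.912 and 0.971, against 0.994 and 0.981. Cenpb, which binds a motif of centromeric DNA, had 0.956 and 0.912 in siVirma, against 0.977 and 0.963 in siNC (chromosome 2 at 131020952). At Fzd5 the groups overlapped, and at Irf2bpl and Cenpb the siVirma levels lay slightly below siNC. B3gnt7, a glycosyltransferase of keratan sulfate, had 0.944 and 0.929 in siVirma, against 0.974 and 0.960 in siNC (chromosome 1 at 86233706). Eid1, an inhibitor of differentiation that binds p300, had 0.934 and 0.970 in siVirma, against 1 in both siNC libraries (chromosome 2 at 125515857). Others with fewer reads were in Purb, Mars2, Klhl9, Exoc8, Zbtb6, Bach1 and Ror2. Several of these genes, such as Fzd5, Irf2bpl, Cenpb, Eid1, Purb and Exoc8, are known to have their coding sequence in a single exon. That is background on picked examples, since no gene structure of mm39 was used here. The share of such genes was not counted, either among the sites that stayed high or among all near-fully methylated sites.

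Of these other sites, 5 were the only siNC site of their gene. Robo2, an axon guidance receptor, had 0.971 and 0.914 in siVirma, against 0.969 and 0.952 in siNC (chromosome 16 at 74890345). Star, which carries cholesterol into mitochondria, had 0.956 and 0.904, against 0.939 and 0.953 (chromosome 8 at 26304124). Cyp2c50, a cytochrome P450, had 0.922 and 0.971, against 0.964 and 0.929 (chromosome 19 at 40080697). In these genes the siVirma and siNC libraries overlapped. They also overlapped in Ryr3, a calcium channel, with 0.978 and 0.941 in siVirma, against 1 and 0.967 in siNC (chromosome 2 at 112694155). The long non-coding RNA Gm30589 had 0.987 and 0.985 in siVirma, against 0.971 and 0.944 in siNC, higher in siVirma without overlap (chromosome 4 at 62357192). The gene conversion rates in siVirma replicate 1 were 0.894 for Robo2, 0.850 for Star, 0.919 for Cyp2c50, 0.941 for Ryr3 and 0.915 for Gm30589, against 0.978 for Fzd5. The gene coverage value of Robo2 was 71.4 and 58.8 in siVirma, against 81.4 and 90.2 in siNC. After the median gene was set equal between libraries, it fell by 0.57 on the log2 scale in siVirma (SE 0.0746, limma adjusted p = 0.0046). That of Star fell by 0.54 (SE 0.0985, limma adjusted p = 0.0113). Ryr3 fell by 0.59 (SE 0.0648, limma adjusted p = 0.00262) and Cyp2c50 by 0.41 (SE 0.104, limma adjusted p = 0.0314). Gm30589 did not pass the test (-0.41, SE 0.131, limma adjusted p = 0.0593). How the authors computed gene coverage is not known, so these values may not stand for the whole transcript. The dependence of coverage calls on single libraries is given below. The part of the conversion rate in these levels was not tested.

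Within the writer complex the one near-fully methylated site was in Rbm15b, an RNA-binding subunit that recruits the complex to its targets (chromosome 9 at 106762048). Its level was 1 in every TBLC library, from 44 and 37 reads in siVirma and 38 and 32 in siNC. Of the 84 writer complex sites with enough depth this was 1, or 1.19%, beside 6.06% of all sites of that depth. The readers and erasers stood at 12 of 98 sites (12.2%), with 5 in Ythdf3, 3 in Ythdf1 and the rest in Alkbh5, an m6A demethylase, and Ythdc1, the nuclear reader. The Ythdf3 site with most reads (chromosome 3 at 16259267) had 0.834 and 0.817 in siVirma, against 0.913 and 0.953 in siNC. The Ythdf1 site with most reads (chromosome 2 at 180552801) had 0.81 and 0.851 in siVirma, against 0.937 and 0.940 in siNC. Each of these sites kept the most of its gene's measured near-fully methylated sites, 88.5%. The groups did not overlap there, with siVirma lower, as at 97.1% of all near-fully methylated sites tested. The other measured near-fully methylated sites kept 68.1% to 85.8% in Ythdf3 and 72.2% in Ythdf1. The median over all near-fully methylated sites was 64.8%.

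Near-fully methylated sites were found in transcripts of the pluripotency network. Of 312 naive pluripotency sites 22 qualified (7.05%), in 9 of 24 genes, beside 6.06% of all sites of that depth. Sox2, a core pluripotency factor, carried 4 of its 22 sites there, within chromosome 3 at 34705043 to 34705744. Their siVirma medians were 0.819 and 0.838, against 0.983 and 0.972 in siNC. The first of them kept 0.864 and 0.869 in siVirma, against 0.992 and 1 in siNC. Its other 12 sites measured in siVirma had a median level of 0.200, against 0.408 in siNC. Nanog, a homeobox factor of naive cells, had 1 such site, with 0.502 and 0.482 in siVirma, against 0.948 and 0.945 in siNC, from 521 to 630 reads (chromosome 6 at 122690357). The deepest Zfp42 site had 0.606 and 0.619 in siVirma, against 0.973 and 0.970 in siNC, from 1333 to 1701 reads (chromosome 8 at 43749012). Zfp42, also called Rex1, is a zinc finger marker of naive cells. The pluripotency sites thus covered a wide span, with the lowest mean siVirma level at 0.375 and the highest at 0.867, and no single level held for them as a group.

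In the other lists the share of near-fully methylated sites was read beside the 6.06% of all sites of that depth, with no test of a difference. It was 9.36% for immediate early and serum response genes (16 of 171 sites), 7.84% for FGF-ERK signalling (20 of 255), 7.80% for Wnt, Notch, Nodal and BMP signalling (23 of 295) and 6 of 43 for the SRY-box factors, 4 of them in Sox2. It was 6.59% for the p53 pathway (11 of 167), 6.67% for the cell cycle (9 of 135), 6.21% for Polycomb and chromatin regulators (19 of 306), 4.41% for primitive endoderm (3 of 68) and 9.52% for the 2-cell stage program (6 of 63). The shares were lower for ubiquitin conjugation, 2.99% (10 of 334), and for splicing factors, 2.77% (7 of 253), where they lay in Son and Srrm2 alone. Son and Srrm2 are large proteins of nuclear speckles. None of 55 sites in fibroblast feeder markers qualified. Several genes belong to more than 1 list.

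Signalling genes supplied examples with many reads. Spry2, a feedback inhibitor of FGF-ERK signalling, had 0.593 and 0.598 in siVirma, against 0.919 and 0.953 in siNC, from 587 to 701 reads (chromosome 14 at 106130481). Ier2, an immediate early gene, had 0.827 and 0.888 in siVirma, against 0.968 and 0.974 in siNC (chromosome 8 at 85388476). Nodal, a TGF-beta family ligand, had 0.719 and 0.689 in siVirma, against 0.986 and 0.954 in siNC (chromosome 10 at 61260671). In all of these the groups did not overlap, and the amount kept ran between that of Spry2 and that of Ier2. Both siVirma libraries were lower than either siNC library at 97.1% of all near-fully methylated sites tested and 94.8% of all sites tested, so this sets none of them apart. Mdm2, the ubiquitin ligase of p53, had 0.543 and 0.523 in siVirma, against 0.903 and 0.907 in siNC (chromosome 10 at 117526223). Ccne1, cyclin E1, had 0.538 and 0.561 in siVirma, against 0.982 and 0.984 in siNC (chromosome 7 at 37797667).

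By name, zinc finger genes called Zfp held 102 of 1128 sites (9.04%), in 59 of 166 genes, with siVirma medians of 0.640 and 0.652. Solute carriers held 56 of 743 (7.54%), with 0.574 and 0.583. Ribosomal protein genes and their copies held 4 of 99. By RefSeq type, protein-coding genes held 2320 of 38258 sites (6.06%), with 0.612 and 0.619 in siVirma, long non-coding RNAs 29 of 350 (8.29%), with 0.672 and 0.696, and pseudogenes 48 of 1155 (4.16%), with 0.632 and 0.639. Apart from tRNA and snRNA, the siVirma medians of the types thus ran from 0.612 to 0.696, highest in long non-coding RNAs. Only 26 long non-coding RNA sites and 46 pseudogene sites were measured there. Of the 1610 genes 1587 were matched to the RefSeq table.

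Near-fully methylated sites were mostly 1 to a gene. There was 1 in 1104 genes, 2 in 320, 3 in 104, 4 in 45 and at least 5 in 37. Sites of genes with more of them kept more: the median of the mean siVirma level was 0.588 where the gene had 1, 0.615 with 2, 0.650 with 3, 0.675 with 4 and 0.689 with 5 or more. The siNC medians of these classes stayed between 0.949 and 0.960. The number of all siNC sites of the gene gave a similar order, with 0.536 at genes of 2 or 3 sites, 0.578 at 4 to 6, 0.583 at 7 to 10, 0.635 at 11 to 20 and 0.655 above 20. Genes with a single siNC site stood at 0.905 over 40 sites, and at 0.638 over the 25 of these that were neither tRNA nor snRNA nor Rnu6-ps1. These are descriptions of sites that share genes and libraries, with no test.

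The gene conversion rate moved with the level that a site kept. In 4 equal classes of the siNC replicate 1 rate, low to high, the median siVirma level was 0.684, 0.629, 0.612 and 0.555. The siNC replicate 1 medians of the same classes were 0.960, 0.956, 0.95 and 0.946. No source used here says how the authors computed the rate, and its part in these levels was not tested. By reads at the site in siNC replicate 1, low to high, such classes had 0.615, 0.631, 0.612 and 0.606, a narrower span with no order. By distance to the nearest siNC site the medians were close up to 1000 nt, with 0.614 within 10 nt, 0.619 at 10 to 30, 0.616 at 30 to 100 and 0.606 at 100 to 1000. The 35 sites with no other site within 1000 nt had 0.929. They included sites of tRNA genes, snRNA genes and Rnu6-ps1, and the median without those is not given here. Near-fully methylated sites lay within 50 nt of another siNC site in 64.6%, against 64.2% of sites at 0.8 to 0.9 and 54.2% of those below 0.5.

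Sites of one gene did not share one level. Over the 473 genes with at least 2 measured sites, the SD within genes of the mean siVirma level was 0.125, against 0.138 over all their sites. Neighbouring sites of a gene correlated with r of 0.190 within 100 nt (162 pairs), 0.219 at 100 to 500 nt (385 pairs) and 0.134 beyond (234 pairs). Pairs share a gene, libraries and, when close, reads, and no p is given.

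The 8 genes with the most near-fully methylated sites were Ahdc1 (11), Zfp280b, Ints5 and Peg10 (8 each), Nup62, Fem1b and Rlf (7 each) and Atxn7l3b (6). Ahdc1, a DNA-binding protein mutated in a developmental disorder, carried its sites within chromosome 4 at 132789194 to 132793415. Their medians were 0.714 in each siVirma library, against 0.975 and 0.974 in siNC, and their mean siVirma levels ran between 0.469 and 0.924. The other 27 Ahdc1 sites of that depth included 19 measured in siVirma, with a median of 0.321, against 0.764 in siNC. The near-fully methylated sites of the gene were thus far above its other sites in siVirma as well.

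Peg10, an imprinted gene derived from a retrotransposon, carried 8 of its 47 sites within chromosome 6 at 4755553 to 4758916. They had medians of 0.784 and 0.775 in siVirma, against 0.971 and 0.961 in siNC. The site at 4757949 stayed at 0.977 and 0.949 in siVirma, against 0.979 and 0.967 in siNC, while that at 4758916 had 0.494 and 0.556, against 0.970 and 0.961, within 1000 nt of it. Ints5, a subunit of the Integrator complex, had medians of 0.704 and 0.696 in siVirma, against 0.967 and 0.959 in siNC, over 8 sites within chromosome 19 at 8872614 to 8874228. Zfp280b, a zinc finger gene, had 0.710 and 0.741, against 0.956 and 0.942, within chromosome 10 at 75874952 to 75876659. Neighbouring near-fully methylated sites of a transcript therefore ranged widely in siVirma, while the choice held them at 0.9 and above in siNC.

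Nup62, a nucleoporin of the central channel, showed the same spread. Its 7 sites, within chromosome 7 at 44478749 to 44480036, had medians of 0.628 and 0.660 in siVirma, against 0.958 and 0.957 in siNC. The site at 44479446 had 0.943 and 0.963 in siVirma, against 1 and 0.976 in siNC, and the mean siVirma level of the lowest of the 7 was 0.580. Fem1b, a substrate receptor of a ubiquitin ligase, had 0.789 and 0.746 in siVirma, against 0.958 and 0.951 in siNC. Rlf, a zinc finger protein, had 0.595 and 0.545, against 0.95 and 0.931, the lowest medians of the 8 genes. Atxn7l3b, related to a subunit of the SAGA deubiquitinase module, had 0.796 and 0.775, against 0.964 and 0.966. In these 8 genes the other sites measured in siVirma had medians of 0.221 to 0.341.

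**Figure D4:**
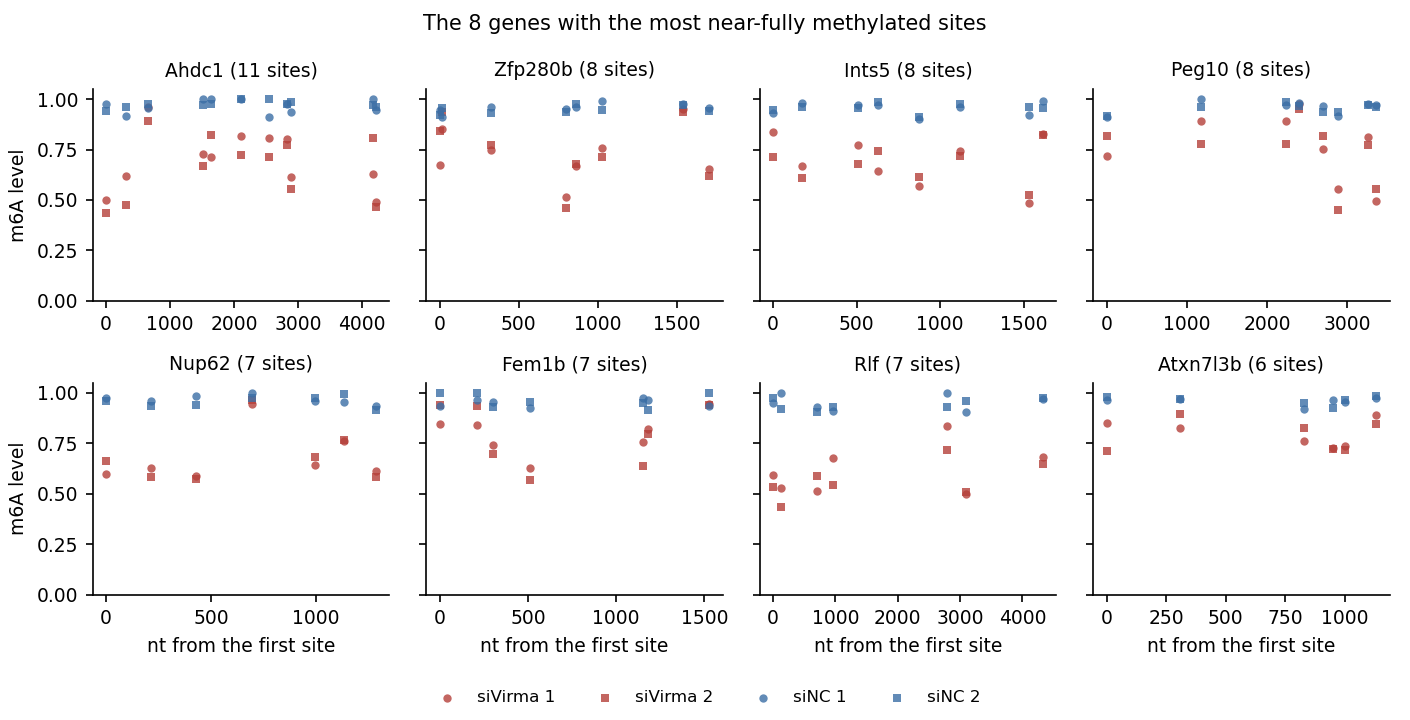
m6A level of each near-fully methylated site of the 8 genes with the most such sites, by distance in nt from the first of them in the direction of transcription, in siVirma (red) and siNC (blue) replicates 1 (circles) and 2 (squares). The siNC points lie at 0.9 and above, while the siVirma points of a gene spread widely, as in Peg10, whose mean siVirma levels run between 0.503 and 0.963.

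Gene coverage in the lists was compared between siVirma and siNC for 6787 genes, of which 1606 carried a near-fully methylated site, after the median gene, 0.166 higher in siVirma in log2 units, was set equal between libraries. With limma, 182 of the 1606 genes had lower coverage in siVirma (11.3%) and 210 higher (13.1%) at an adjusted p of 0.05, against 12.4% lower and 9.15% higher over all genes tested. The median log2 change was -0.01 for these genes and -0.05 for the other genes tested. Mycn, an oncogenic transcription factor, was higher by 0.53 (SE 0.0504, limma adjusted p = 0.00147), and Btg2, an antiproliferative immediate early gene, by 0.53 (SE 0.0539, limma adjusted p = 0.00206). Ahdc1 was higher by 0.38 (SE 0.0504, limma adjusted p = 0.00479). Klhl9, a substrate adaptor of a ubiquitin ligase, fell by 0.34 (SE 0.0518, limma adjusted p = 0.00716) and Nodal by 0.36 (SE 0.0587, limma adjusted p = 0.00837). Sox2 did not pass the test (-0.05, SE 0.0583, limma adjusted p = 0.577).

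Without setting the median gene equal, 6 of these genes were lower and 211 higher, against 0.442% lower and 9.46% higher over all genes tested. The coverage calls rest on siVirma replicate 1. Without it, 1 of the genes was lower and 3 higher, against 0.14% lower and 0.211% higher over all genes. Without siNC replicate 2 there were 93 of each, against 6.5% lower and 4.39% higher over all genes. Coverage cannot tell fewer cells of a type from less RNA per cell. The coverage of the 6 fibroblast feeder markers summed to 552 and 445 in siVirma, against 309 and 289 in siNC. That of the naive markers summed to 1092 and 889 in siVirma, where 5 of the 6 were listed, against 1971 and 1951 in siNC, where all 6 were. The naive sums thus cover different sets of genes and cannot be compared between siVirma and siNC. The part of the feeder and naive markers in the coverage calls was not tested. No feeder marker carried a near-fully methylated site.

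Many of the sites were also highly methylated in EPSC, which were not used to choose them. The pooled EPSC table listed 992 of the 2446 sites (40.6%), against 41.2% of the sites at siNC levels of 0.8 to 0.9 and 30.5% of those below 0.5. Of these, 399 had at least 20 reads in both groups. Their median level was 0.892 in sgGata6 (quartiles 0.833 and 0.929) and 0.909 in sgCtrl (quartiles 0.855 and 0.95). Sites at siNC levels of 0.8 to 0.9 had medians of 0.791 in sgGata6 and 0.804 in sgCtrl, over 453 sites of that depth. At siNC levels of 0.7 to 0.8 the medians were 0.687 in sgGata6 and 0.690 in sgCtrl. The EPSC level thus also went down over these siNC bands. Over all 10185 EPSC sites of that depth the medians were 0.224 in sgGata6 and 0.222 in sgCtrl. At 0.9 or above were 188 of the 399 sites in sgGata6 (47.1%) and 230 in sgCtrl (57.6%), 145 of them in both, and below 0.7 were 9 in sgGata6 and 11 in sgCtrl. EPSC and TBLC differ in cell type and depth and the tables were made separately, so the levels are set side by side with no test.

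No near-fully methylated site passed the test between the EPSC groups. The two-sided Fisher exact test on pooled reads, adjusted over all 10185 sites, called 0 of the 399, against 0.275% of all sites. At an unadjusted p under 0.05 the same test had 9 lower and 5 higher in sgGata6. The share of all sites at that unadjusted p is not given here, so nothing is read from these counts. The test compares pooled libraries, not the conditions. Of the 992 listed sites, whose median depth was 22 reads in sgGata6 and 19 in sgCtrl, most were too shallow to be tested. The median difference, sgGata6 minus sgCtrl, was -0.0184 over these sites and -0.00906 over all, and 61.4% of these sites were lower in sgGata6, against 53.1% of all.

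The 398 sites measured in siVirma and in EPSC had medians of 0.611 in siVirma and 0.951 in siNC, beside 0.893 in sgGata6 and 0.908 in sgCtrl. In 94.7% of them the siVirma level was below the sgCtrl level. By class of siVirma replicate 1 level, low to high, the sgGata6 medians were 0.857, 0.868, 0.902, 0.905 and 0.920. The sgCtrl medians of the same classes were 0.892, 0.889, 0.909, 0.952 and 0.935, highest in the class of 0.7 to 0.8 and with no strict order. The siNC replicate 1 medians were 0.935 in the lowest class and 0.969 in the highest, and the part of the siNC level in these differences was not tested.

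**Figure D5:**
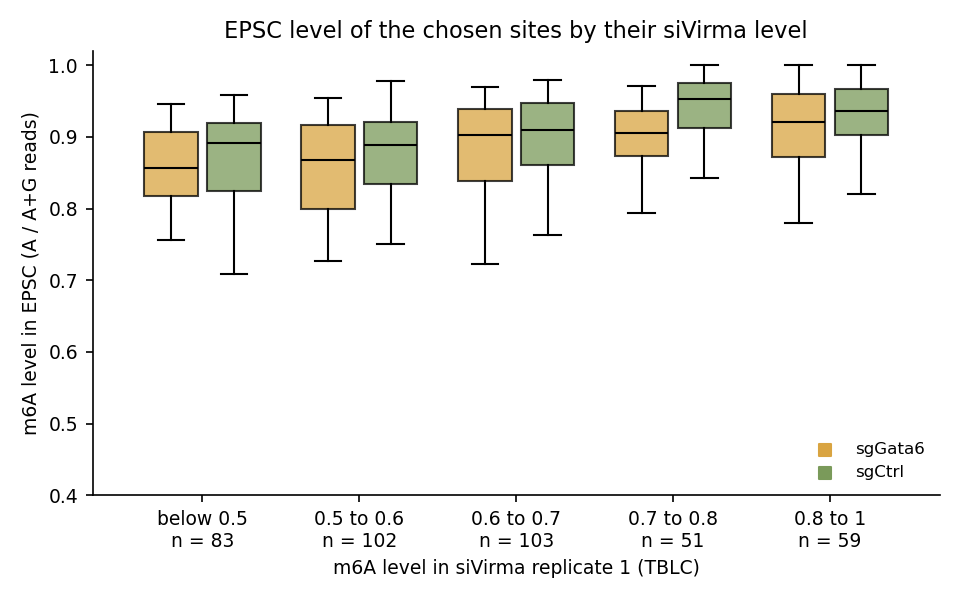
m6A level in the pooled EPSC groups, sgGata6 and sgCtrl, of the near-fully methylated TBLC sites with at least 20 reads in each, by their level in siVirma replicate 1; boxes are quartiles, lines medians and whiskers the 5th and 95th percentiles over sites, and the vertical axis starts at 0.4. The medians lie between 0.857 and 0.952 in all classes, the lowest in sgGata6 at sites below 0.5.

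A few sites were much lower in EPSC than in control TBLC. The lowest in sgCtrl was in Nudcd3, a cochaperone of Hsp90 (chromosome 11 at 6057185), with 0.521 in sgGata6 from 142 reads and 0.542 in sgCtrl from 118 reads. Its 95% Wilson interval in sgCtrl was 0.453 to 0.629, and its levels were 0.637 and 0.662 in siVirma and 0.958 and 0.937 in siNC. Rest, a repressor of neuronal genes (chromosome 5 at 77430452), had 0.609 in sgGata6 and 0.619 in sgCtrl, and Mga, a Myc network repressor (chromosome 2 at 119794425), had 0.654 in sgGata6 and 0.613 in sgCtrl. Both of these were above 0.91 in each siNC library. At the deep end, n-TUtca2 had 0.987 in sgGata6 and 0.993 in sgCtrl, and Calr had 0.906 in sgGata6 from 680 reads and 0.930 in sgCtrl from 429 reads. Calr was thus near its siNC level in both EPSC groups and far above its siVirma level.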

How the data were processed

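GLORI libraries were made from mRNA, per the labels' protocols. The build is mm39, per the submitters' processing notes, and no source used here names the aligner or site caller. Per the file headers, each TBLC list holds deposited read counts per site, of A+G and of A. As a fraction, the deposited level equals A divided by A+G reads within 5e-06. The deposited p-value of a site is the authors' and was not used beyond their own filter. Gene conversion rates (fractions) and a gene coverage signal are deposited as well, with no source used here for how they were computed. In the deposited EPSC table, A counts and A+G coverage are pooled by group, and 2 columns of total coverage were left aside.

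Groups came from the sample titles. The sites and the 15 gene lists were chosen with earlier results of these data known. R 4.3.3 was used for the tests, with edgeR 4.0.16 for site levels (quasi-likelihood test on A and G counts, a term per library, at least 20 A+G reads in all 4 TBLC libraries). Gene coverage was tested with limma 3.58.1 on centred log2 values, and EPSC sites with Fisher's exact test. p-values were adjusted by Benjamini-Hochberg over all features tested, at 0.05. The tests were tried on simulated data. Wilson intervals hold counting error alone, as reads lack molecular identifiers and are not independent molecules.

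Named sites were the 8 genes with the most sites, the 6 lowest and 6 highest siVirma levels among sites with at least 50 reads, those in neither siVirma list, the 4 lowest in sgCtrl, the 2 deepest in EPSC and up to 2 genes per list. Sites at 0.9 or above in both siVirma libraries were added after their values were seen. Sites on chromosome 18 were counted and not named. One site that the rule took is not reported here. Gene types came from RefSeq names (GRCm38.p6), with no coordinates taken. Python 3.11.15 was used with pandas 2.3.3, scipy 1.17.1, numpy 2.4.6 and, for plots, matplotlib 3.10.9.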

Additional observations from a re-analysis of the deposited data

How the results depend on the processing

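A minimum of 50 siNC reads left 1007 sites, with 100% mean retention and a siVirma level of 0.607. A threshold of 0.95 left 930 sites, with a siVirma level of 0.689 and EPSC medians of 0.912 in sgGata6 and 0.947 in sgCtrl. Over summed siNC reads the siVirma level was 0.597 and the sgCtrl median 0.9. With sites without a gene name included, they were 0.632 in siVirma and 0.902 in sgGata6. The siVirma level was 0.607 with at least 50 siVirma reads and 0.613 with unlisted sites set to 0. Leaving out 1 library at a time gave retention of 96.7% to 99.6%, siVirma levels of 0.582 to 0.621, and EPSC medians of 0.877 to 0.879 in sgGata6 and 0.9 in sgCtrl. With at least 50 reads, 942 of the 967 sites tested were called lower (97.4%), against 94.4% of all 9010 sites tested. DESeq2 1.42.0 called 1 of 2311 sites higher (0.0433%), against 0.0196% of all sites tested. Coverage calls were 6 lower without centring, against 0.442% of all genes tested. With 1 library left out they were 1 to 144 lower and 3 to 195 higher. Over all genes tested, the shares called in those fits were 0.14% to 10.5% lower and 0.211% to 7.79% higher. Such fits have 1 library in a group, so nothing is read from their counts. The causes were not tested. Without tRNA, snRNA and Rnu6-ps1 sites, an alternative chosen after seeing the data, no result moved by more than the spread between replicates.

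The replicate numbers are shared by siVirma and siNC, but the labels do not say that they pair libraries, and deviations of same-numbered libraries correlated at 0.00844 for site levels and 0.138 for gene coverage. With a replicate block, edgeR called 2210 sites lower and 2 higher (91.6% and 0.147% of all sites), and limma called 270 genes lower and 272 higher in coverage (19.2% and 12.3% of all genes). Of 172 named sites with a fit, 123 were called and 20 of them lost their call under at least 1 alternative, none with a changed direction. The median counting error of a site in siVirma replicate 1 was 0.0548, where the listed sites had a median of 63 reads, and shallower sites have a larger one.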

Other observations

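Sites at the same siNC levels and depth but without a gene name numbered 290, and they stood higher after the Virma siRNA than the sites in named genes. The 233 of them with at least 20 reads in both siVirma libraries had medians of 0.944 and 0.943 in siVirma, against 0.959 and 0.962 in siNC, with quartiles of the mean siVirma level at 0.901 and 0.969. In both siVirma libraries 154 of them (66.1%) were at 0.9 or above, against 2.55% of the near-fully methylated sites in named genes. What these positions are is not stated, since no annotation of mm39 was used here. In genes, 83 sites were at 0.9 or above in both siVirma libraries at that depth, of which 59 belong to the sites described above and 24 do not.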
